A study of Mus musculus with 24 samples.

Results

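Mouse mitochondrial DNA carries 7 genes for subunits of respiratory complex I, namely mt-Nd1, mt-Nd2, mt-Nd3, mt-Nd4, mt-Nd4l, mt-Nd5 and mt-Nd6. They were taken by symbol from a table of 32544 genes, and all 7 passed the filter on low values. Their mRNA was measured in inguinal mammary glands of 24 mice in 8 groups of 3. The groups cross genotype (BL/6 C57 or BL/6 NZB, names used for BL/6 strains whose mitochondrial genome is of C57 or of NZB origin) with stage (non-lactating, or lactation day 8, 14 or 21). No age is stated in the sources used here. The word before, used of lactation, stands below for the non-lactating groups, which hold other mice than the lactating groups. The genotype tag of C57 non-lactating mouse 3 reads NZB while its title reads C57, and it was kept as C57. Reads of Gm29216, which copies part of mt-Co1 in nuclear DNA, were present in it and in all C57 glands (268 to 3591 CPM over the 12), and absent (0 CPM) from all 12 NZB glands. Nothing in the labels says how separate the mice of a group are beyond their numbers, so p-values measure the spread between these samples.

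Complex I, NADH dehydrogenase, takes electrons from NADH, passes them to ubiquinone and pumps protons across the inner mitochondrial membrane. Its core membrane subunits are made inside the organelle from the 7 genes studied here, while all its other subunits come from nuclear genes and are imported. The genes are transcribed as long precursors that are cut at the tRNAs between most of them. No tRNA lies between mt-Nd4l and mt-Nd4, which overlap. All but mt-Nd6 are read from the same strand. In the lactating gland the secretory epithelium spends much energy on milk synthesis. ND1 sits where ubiquinone binds, and ND3 carries a mobile loop near that site. ND2, ND4 and ND5 are the antiporter-like subunits of the membrane arm, and ND4L and ND6 belong to that arm too.

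Gene positions follow GENCODE mouse release 21, build GRCm38, chromosome M. The plus strand holds mt-Nd1 (chrM:2751-3707, 957 bases), mt-Nd2 (chrM:3914-4951, 1038 bases), mt-Nd3 (chrM:9459-9806, 348 bases), mt-Nd4l (chrM:9877-10173, 297 bases), mt-Nd4 (chrM:10167-11544, 1378 bases) and mt-Nd5 (chrM:11742-13565, 1824 bases). The minus strand holds mt-Nd6 (chrM:13552-14070, 519 bases). Each is a single protein-coding exon without introns. The base composition sets mt-Nd6 apart, with 28.1% G and 5.97% C in its sense strand, against 8.00% to 11.6% G and 22.1% to 29.97% C in the other 6 genes.

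Both overlaps between members are shown because reads in them belong to 2 genes. The last bases of mt-Nd4l are the first of mt-Nd4, and the capitals mark the 7 shared bases.
mt-Nd4l end: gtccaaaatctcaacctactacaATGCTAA
mt-Nd4 start: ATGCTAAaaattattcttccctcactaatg
The last 14 bases of mt-Nd5 and of mt-Nd6 cover the same stretch on opposite strands. They are in capitals, each read 5′ to 3′ on its own strand (chrM:13536-13565, plus, and chrM:13552-13581, minus).
mt-Nd5 end: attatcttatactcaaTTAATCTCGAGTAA
mt-Nd6 end: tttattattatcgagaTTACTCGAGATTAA
Whether counting used strand is not known from the sources used here. Reads of mt-Nd6 therefore cannot be told apart from reads of the opposite strand over the same bases. The coding stretch of mt-Nd4 ends in a lone T (last 15 bases, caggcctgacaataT, with that base in capitals), and the stop codon of such a gene is completed when the mRNA is polyadenylated.

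Several members have near-identical nuclear copies in the annotation, found by BLAST at 90% identity or more over at least 200 bases. A block on chromosome 1 (minus strand) holds Gm28438 (chr1:24612775-24613119), which matches mt-Nd3 over 345 bases, and Gm28439 (chr1:24611535-24612410), which matches the first 876 bases of mt-Nd4 without a mismatch. It also holds Gm10222 (chr1:24612407-24612700), identical to mt-Nd4l over 294 bases. The single mismatch between mt-Nd3 and Gm28438 is T3C, counted from the first base of the coding stretch, so the gene and its copy part in the third base of the start codon (capitals).
mt-Nd3: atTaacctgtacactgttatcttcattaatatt
Gm28438: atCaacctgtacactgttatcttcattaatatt
The other copies are less alike, from 92.4% (Gm11407, mt-Nd5) to 96.7% (Gm13339, mt-Nd2), and hold at most 21.8 CPM. No copy of mt-Nd1 met the criteria.

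CPM is the read count of a gene after scaling each library to a sum of 1000000. Non-lactating glands had 7031812 to 15884404 reads, and lactating glands had 14814156 to 24253127. Milk protein genes held 0.475% to 1.97% of reads in non-lactating glands, 61.8% to 76.2% in C57 lactating glands and in NZB glands on days 8 and 14, and 18.4% to 30.6% in NZB glands on day 21. Levels are therefore given as non-milk CPM, after removal of 20 milk protein genes and rescaling of the rest to the same total. The second scale is the share of a gene in the 13 mRNAs of mitochondrial DNA, counted as 1 per protein gene, in percent. That share does not depend on the amount of milk mRNA, but it depends on how reads are split between mitochondrial genes and nuclear copies. Gm28661, identical to mt-Co2 over 681 bases, held 1853 to 11433 CPM. Gm28437, identical to mt-Co3 over 783 bases, held 19.4 to 706 CPM. Gm29216 differed by genotype, as given above. Reads assigned to these copies are missing from the total of the 13. The 13 shares also add to a fixed total, so that a fall in 1 comes with rises in others. Luminal secretory markers, which include Csn2 and other milk mRNAs, summed to 67777 to 362473 CPM in lactating glands. In non-lactating glands they summed to 1516 to 8117 CPM. Csn2 alone held 277820 of 335083 CPM in C57 day 8 mouse 1. Krt8 of the same list went the other way in C57. It stood at 54.7, 96.3 and 55.2 CPM in non-lactating mice and at 11.6, 9.17 and 8.05 CPM on day 8. In NZB on day 21, where the sum was lowest among lactating groups, Krt8 stood at 126, 183 and 233 CPM. White adipocyte markers summed to 2275 to 6164 CPM in non-lactating glands, to 51.1 to 146 CPM in lactating C57 glands and to 593 to 1482 CPM in NZB glands on day 21.

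The 7 mRNAs together made up 38.1% to 46.4% of the 13 mitochondrial mRNAs in all 24 mice. As a part of non-milk reads they held 4.92% to 6.51% in C57 non-lactating glands and 3.41% to 5.86% in C57 lactating glands. In NZB they held 2.58% to 4.51% before lactation, 4.51% to 5.04% on day 8, 2.76% to 3.99% on day 14 and 2.35% to 4.11% on day 21. In deposited CPM, with milk mRNAs in the total, lactating C57 glands fell to 0.931% to 1.76% of reads, from 4.89% to 6.48% before. In RNA from whole glands, fewer cells of a type and less RNA per cell cannot be told apart, and the part of the shift from adipocyte to secretory markers in these levels was not tested. At the mean depth of the 2 columns, each member but mt-Nd3 rested on at least 4327 reads in every mouse, and mt-Nd3 on 239 to 3319.

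**Figure D1:**
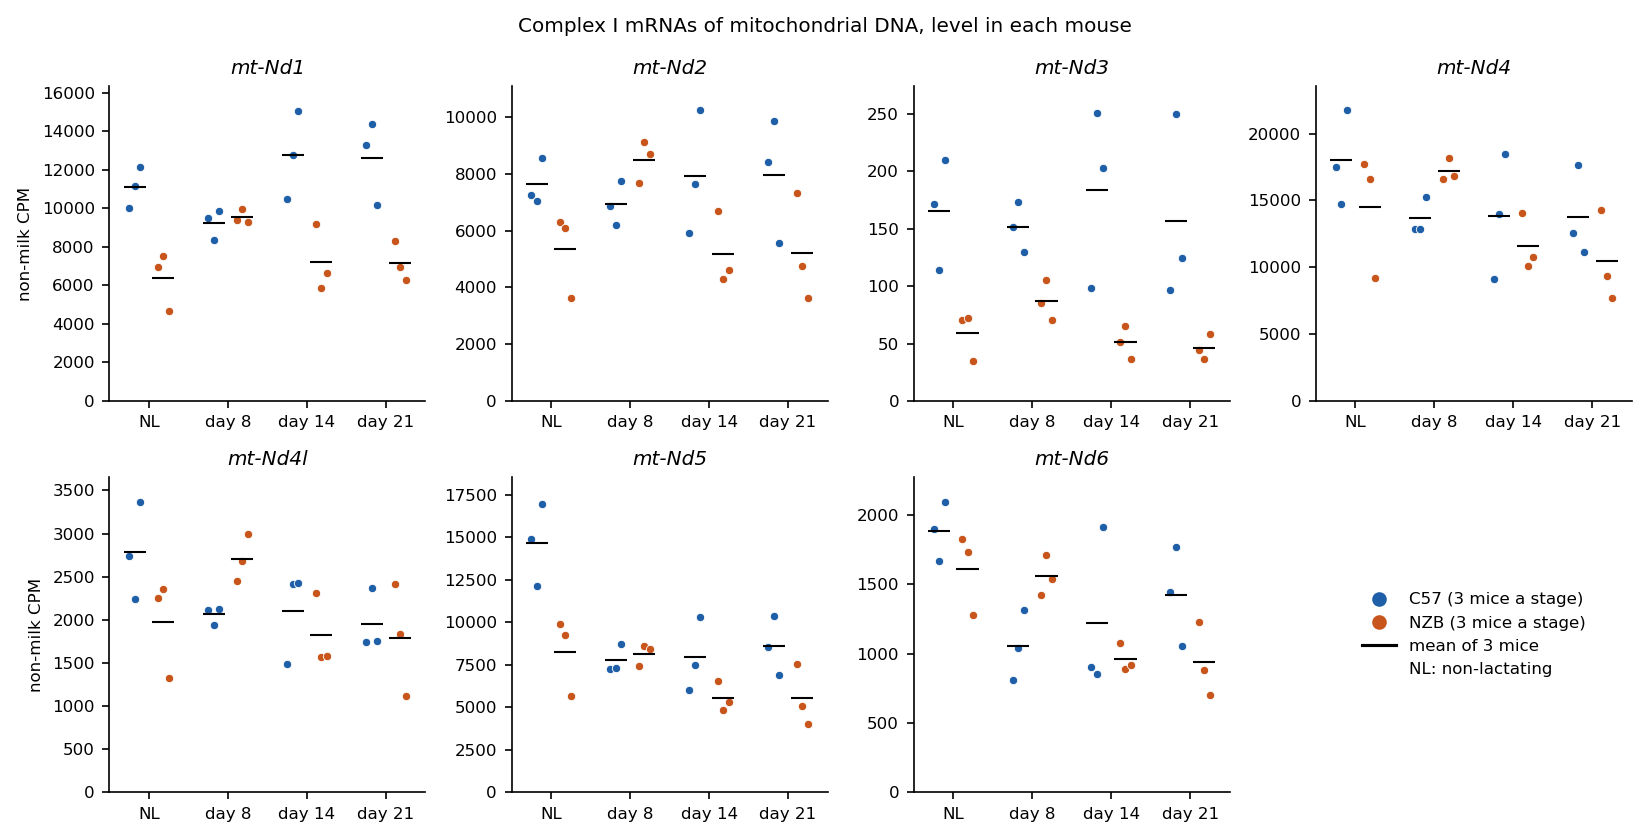
Non-milk CPM (linear axis from 0) of each complex I gene of mitochondrial DNA in each of 24 mice, by stage and genotype, with the mean of 3 mice as a black line. In mt-Nd5 the 3 C57 non-lactating mice (12138 to 16999) sit above all other mice, and in mt-Nd3 each NZB group sits below the C57 group of the same stage.

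Divided by length (non-milk CPM per kilobase), the members kept a stable order at the bottom. In all 24 mice mt-Nd3 was the lowest and mt-Nd6 the second lowest. In C57 non-lactating glands the level per length was 13063 ± 2552 (SD, n = 3) for mt-Nd4, 11617 ± 1115 for mt-Nd1, 9376 ± 1886 for mt-Nd4l and 8055 ± 1338 for mt-Nd5. It was 7348 ± 792 for mt-Nd2, 3638 ± 409 for mt-Nd6 and 474 ± 139 for mt-Nd3. From mt-Nd4 down to mt-Nd2 the mean ± SD ranges of neighbours in this order overlapped, and those of mt-Nd6 and mt-Nd3 lay apart. In NZB non-lactating glands the order was mt-Nd4 (10551 ± 3367), mt-Nd1 (6676 ± 1595), mt-Nd4l (6663 ± 1926), mt-Nd2 (5142 ± 1420), mt-Nd5 (4543 ± 1252), mt-Nd6 (3108 ± 562) and mt-Nd3 (170 ± 62).

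The top of the order was shared by mt-Nd1 and mt-Nd4. Per length, mt-Nd1 stood above mt-Nd4 in 7 of 9 lactating C57 mice and in 1 of 3 non-lactating C57 mice. In NZB it did so in 2 of 9 lactating mice and in 0 of 3 non-lactating mice. The ratio of mt-Nd1 to mt-Nd4 per length had a median of 1.17 (0.931 to 1.65) in lactating C57 and 0.837 (0.792 to 1.17) in lactating NZB glands. Before lactation it was 0.824 (0.804 to 1.09) in C57 and 0.653 (0.565 to 0.727) in NZB. On day 14 the levels per length in C57 were 13340 ± 2394 for mt-Nd1 and 10061 ± 3384 for mt-Nd4, and in NZB 7556 ± 1810 and 8436 ± 1530.

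The first comparison was between lactating and non-lactating glands of each genotype. In C57 glands mt-Nd5 and mt-Nd6, the neighbours that overlap tail to tail, were lower on days 8 and 14, and no member rose. Differences are on the log2(non-milk CPM + 1) scale with limma's standard error (SE), tested over 16142 genes at a Benjamini-Hochberg adjusted p of 0.05. In C57 non-lactating mice mt-Nd5, the distal antiporter-like subunit, stood at 14938, 12138 and 16999 non-milk CPM. It stood at 7276, 7343 and 8729 on day 8, at 6055, 7494 and 10303 on day 14 and at 8543, 10392 and 6901 on day 21. Every lactating C57 mouse was below every non-lactating one. The log2 difference was -0.91 (SE 0.31) on day 8 (limma adjusted p = 0.0210), -0.91 (SE 0.31) on day 14 (limma adjusted p = 0.0239) and -0.78 (SE 0.31) on day 21, where it missed the threshold (limma adjusted p = 0.0512). The day 21 difference passed without non-lactating mouse 2 (limma adjusted p = 0.0432) or day 21 mouse 2 (limma adjusted p = 0.0469).

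The row of mt-Nd6, the only member on the minus strand, may hold reads of the opposite strand, since strand use is not known. Their part was not tested. In this row C57 non-lactating mice had 1902, 1669 and 2093 non-milk CPM. On day 8 they had 812, 1043 and 1314, on day 14 they had 902, 853 and 1915, and on day 21 they had 1442, 1772 and 1054. Day 8 lay below the non-lactating range, while day 14 mouse 3 and day 21 mouse 2 lay inside it. The log2 difference was -0.86 (SE 0.28) on day 8 (limma adjusted p = 0.0154), -0.72 (SE 0.28) on day 14 (limma adjusted p = 0.0438) and -0.43 (SE 0.28) on day 21 (limma adjusted p = 0.234).

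In NZB glands mt-Nd6 was lower on days 14 and 21. Its levels were 1828, 1730 and 1281 non-milk CPM before lactation and 1425, 1714 and 1536 on day 8. They were 1076, 892 and 922 on day 14 and 1232, 884 and 701 on day 21, all below the non-lactating values. The log2 difference was -0.04 (SE 0.28) on day 8, -0.73 (SE 0.28) on day 14 (limma adjusted p = 0.0361) and -0.80 (SE 0.28) on day 21 (limma adjusted p = 0.0307). For mt-Nd5 the NZB non-lactating mice stood at 9918, 9263 and 5676 non-milk CPM, day 8 at 7439, 8636 and 8435, day 14 at 6551, 4868 and 5299, and day 21 at 7532, 5094 and 4026. These groups overlapped in non-lactating mouse 3, and the log2 differences were 0.02, -0.54 and -0.58 (SE 0.31 each), none past the threshold. Without non-lactating mouse 3 the day 21 difference passed (limma adjusted p = 0.0473).

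**Figure D2:**
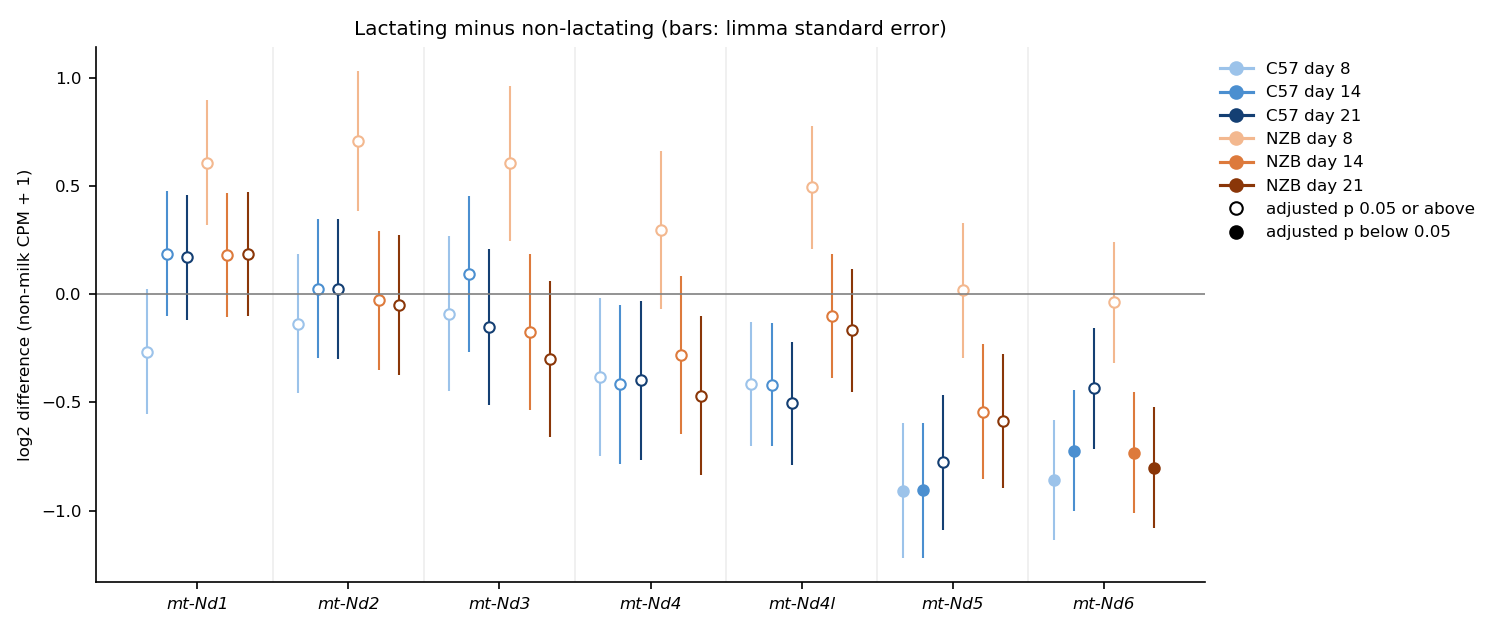
Lactating minus non-lactating, log2(non-milk CPM + 1), for each gene, genotype and day, with limma's standard error as bars and filled points for an adjusted p below 0.05. The filled points are mt-Nd5 (C57 days 8 and 14) and mt-Nd6 (C57 days 8 and 14, NZB days 14 and 21), and NZB day 8 is the highest point for every gene.

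Counted over the family, 0 of 7 members rose and 2 fell in C57 on day 8, where 13% of all genes tested rose and 32.1% fell. On day 14 of C57 0 rose and 2 fell (all genes: 14.0% and 25.2%). On day 21 of C57 none was called (13.8% and 26.2%), against 1 at an unadjusted p below 0.05 in limma and 1 called by limma voom on recovered reads. In NZB none was called on day 8 (all genes: 14.8% rose and 33.0% fell), against 2 at an unadjusted p below 0.05 and 2 called by limma voom. On day 14 of NZB 0 rose and 1 fell (15.6% and 31.1%), and on day 21 0 rose and 1 fell (17.4% and 15.5%). These counts are near or below the shares of all genes that fell. The median log2 difference of the 7 members was -0.38, -0.42 and -0.40 in C57 on days 8, 14 and 21, beside -0.33, -0.19 and -0.21 over all genes tested. In NZB it was 0.50, -0.17 and -0.30, beside -0.32, -0.34 and -0.06.

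None of these 6 calls of single genes held when each mouse was left out in turn. In C57 the adjusted p of mt-Nd5 rose above 0.05 without non-lactating mouse 1 or 3 or without mouse 1 or 2 of the lactation day (0.0539 to 0.0797 on day 8 and 0.0625 to 0.109 on day 14). For mt-Nd6 it rose to 0.0553 and 0.0865 on day 8 without non-lactating mouse 3 and day 8 mouse 1, and to 0.0934 to 0.214 on day 14 without the same mice as for mt-Nd5. In NZB it rose to 0.0844 to 0.0971 on day 14 and to 0.0801 to 0.164 on day 21, without non-lactating mouse 1 or 2 or without mouse 2 or 3 of the day. The differences stayed below 0 in all of these fits. Without the 3 NZB mice high in muscle markers (non-lactating mouse 3 and day 21 mice 1 and 2), mt-Nd5 also passed in NZB, at -0.79 on day 14 (limma adjusted p = 0.0434) and -1.25 on day 21 (limma adjusted p = 0.0269), and mt-Nd4l at -1.04 on day 21 (limma adjusted p = 0.0276). That leaves 1 mouse on day 21, assumed to vary like the other groups. Without NZB non-lactating mice 2 and 3, high in lymphocyte markers, mt-Nd6 was at -0.93 on day 14 (limma adjusted p = 0.0788) and -0.999 on day 21 (limma adjusted p = 0.0629).

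No lactation difference of the other 5 members passed the threshold. For mt-Nd4 the 3 C57 differences were -0.38, -0.42 and -0.40 (SE 0.37 each) on days 8, 14 and 21, and for mt-Nd4l -0.41, -0.42 and -0.50 (SE 0.29 each). For mt-Nd1 they were -0.27, 0.19 and 0.17 (SE 0.29 each) and for mt-Nd2 -0.14, 0.03 and 0.02 (SE 0.32 each). In NZB on day 8 the values nearest to the threshold were positive. There mt-Nd2 stood at 7670, 9119 and 8711 non-milk CPM against 6296, 6078 and 3640 before, a log2 difference of 0.71 (SE 0.32, limma adjusted p = 0.0737). For mt-Nd1 the day 8 values were 9392, 9987 and 9275 against 6975, 7536 and 4657 before, a difference of 0.61 (SE 0.29, limma adjusted p = 0.0862).

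With milk mRNAs kept in the total the picture turned to a fall of every member. In deposited CPM all 7 fell on each of the 3 days in C57 (log2 differences of -2.85 to -1.59) and on days 8 and 14 in NZB (-2.55 to -1.21). On day 21 of NZB 3 fell, mt-Nd4 (-0.87), mt-Nd5 (-0.98) and mt-Nd6 (-1.20). On this scale the median over all genes moved too, by -1.81, -1.59 and -1.60 in C57 and by -1.80, -1.73 and -0.40 in NZB, so these falls are to be read against it.

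Within the mitochondrial pool, 5 of the 7 members changed their share with lactation, 2 upward and 3 downward, as did 1 of the other 6 mRNAs (mt-Co3, upward by 1.15 percentage points). The largest change was in mt-Nd5. It made up 12.07%, 11.29% and 11.56% of the 13 mRNAs in C57 non-lactating mice, and 6.35% to 8.16% (median 7.37%) in the 9 lactating ones. In NZB it made up 9.53%, 9.08% and 10.09% before, and 6.98% to 8.09% (median 7.34%) in lactation. The ranges did not overlap in either genotype. Averaged over genotypes the share was lower by 3.15 percentage points (exact 2-sided permutation p = 2.07e-05, the smallest this design allows; adjusted over the 13 genes, p = 0.000269).

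The share of mt-Nd6, under the same limit on strand, moved the same way. It was 1.54%, 1.55% and 1.42% before lactation and 0.724% to 1.52% (median 1.12%) in lactating C57 mice, with 1 lactating mouse inside the non-lactating range. In NZB it was 1.76%, 1.70% and 2.28% before and 1.19% to 1.498% (median 1.32%) in lactation, with no overlap. The mean difference was -0.480 percentage points (exact permutation p = 4.13e-05, adjusted p = 0.000269). The share of mt-Nd4, the antiporter-like subunit encoded next to mt-Nd5, was 14.1%, 13.7% and 14.8% before and 10.9% to 14.6% (median 12.5%) in lactating C57 mice. In NZB it was 17.1%, 16.3% and 16.4% before and 13.4% to 16.2% (median 15.4%) in lactation. It differed by -1.58 points (exact permutation p = 0.00110, adjusted p = 0.00356).

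Shares of the 2 members nearest the start of the plus-strand precursor were higher. For mt-Nd1 the C57 share was 8.09%, 10.4% and 8.26% before and 8.40% to 12.5% (median 10.8%) in lactation. In NZB it was 6.70%, 7.39% and 8.28% before and 8.52% to 10.9% (median 9.18%) in lactation, without overlap. The mean difference was 1.83 points (exact permutation p = 0.00407, adjusted p = 0.0106). For mt-Nd2 the means went from 6.08% to 6.95% in C57 and from 6.16% to 7.22% in NZB, a difference of 0.961 points (exact permutation p = 0.00529, adjusted p = 0.0115). In mt-Nd1 the C57 mice of day 8 (9.18%, 8.40% and 8.61%) lay inside the non-lactating range, and those of days 14 and 21 (10.8% to 12.5%) lay above it. For mt-Nd4l the difference was -0.0825 points (adjusted p = 0.522) and for mt-Nd3 0.0122 points (adjusted p = 0.488) in the same exact tests.

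**Figure D3:**
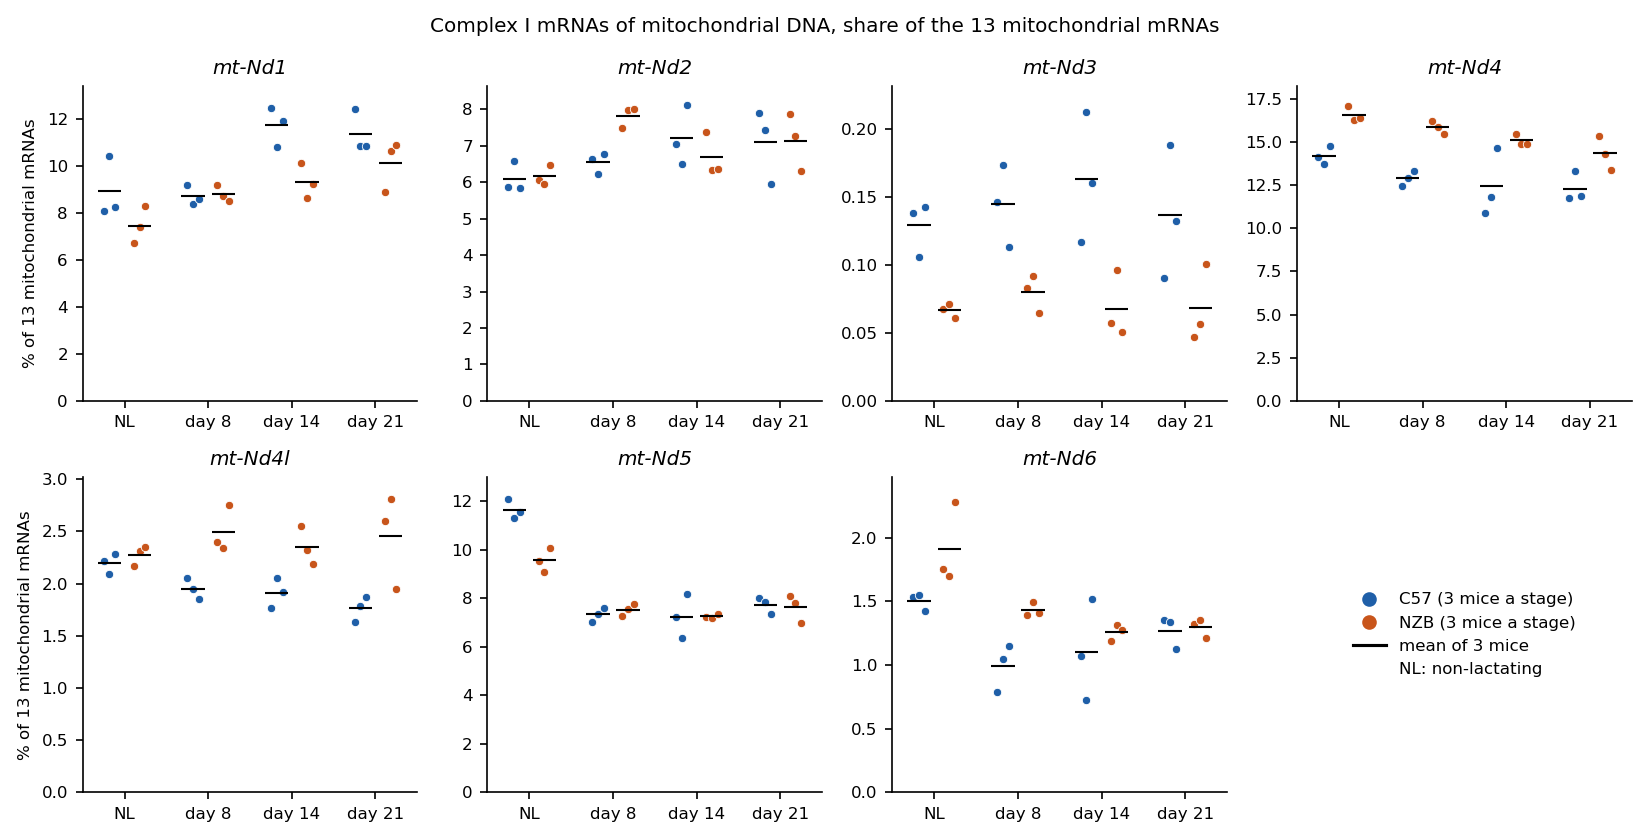
Share of each gene in the 13 mitochondrial mRNAs (percent, linear axis from 0) in each mouse, by stage and genotype, with the mean of 3 mice as a black line. For mt-Nd5 all 6 non-lactating mice (9.08% to 12.07%) lie above all 18 lactating mice (6.35% to 8.16%), and for mt-Nd4 each NZB group lies above the C57 group of its stage.

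No difference between the genotypes in these lactation changes passed the test, which was added after the data were seen. It permuted genotype within stage, so its null is no genotype difference at any stage, and p is not exact for the change. A steady genotype difference in share widens the reference, so a miss does not show equal changes. For mt-Nd5 the change of share was -4.201 points in C57 and -2.10 in NZB, 2.10 points apart. The permutation p was 0.0451, and 0.265 after adjustment over the 13 genes. For mt-Nd4l the change was -0.322 points in C57 and 0.157 in NZB, a difference of 0.479 points (permutation p = 0.0107, adjusted p = 0.139). The adjusted p for mt-Nd4l fell to 0.0125 with mt-Co1 left out of the total, to 0.0327 without C57 non-lactating mouse 2, and to 0.0195 without NZB non-lactating mice 2 and 3, whose lymphocyte markers summed to 289 and 856 CPM. On the level scale the genotype difference of the change to day 8 ranged from 0.68 to 0.93 over the 7 members, all positive. None of the 7 was called by limma there (0.756% of all genes were), with 4 at an unadjusted p below 0.05 and 0 called by limma voom. For the changes to days 14 and 21 none was called either (0.725% and 17.8% of all genes), with 0 at an unadjusted p below 0.05 and 0 by limma voom.

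Next, NZB was compared with C57 at each stage. No NZB mitochondrial sequence was at hand, so mismatches of NZB reads to the C57 reference could not be examined. Their part in the genotype differences of levels and shares below was not tested. Reads assigned to nuclear copies differed by genotype. Gm13339, a copy of mt-Nd2, held 0 to 0.123 CPM in C57 mice and 2.97 to 21.8 CPM in NZB mice. Over the mean of the 4 stages mt-Nd1 and mt-Nd3 were lower in NZB, so 0 members were higher and 2 lower, beside 3.12% and 1.41% of all genes. The mt-Nd3 call was lost when its nuclear copy was added (-0.16, limma adjusted p = 0.396), which leaves 1 member lower. For mt-Nd1 the C57 values were 10015, 11191 and 12146 non-milk CPM before lactation, 9487, 8379 and 9869 on day 8, 10480, 12757 and 15062 on day 14 and 13270.5, 14377 and 10178 on day 21. The NZB values were 6975, 7536 and 4657 before, 9392, 9987 and 9275 on day 8, 9179, 5865 and 6648 on day 14 and 8293, 6938 and 6274 on day 21. The genotypes overlapped on day 8 alone, and at the other 3 stages every NZB mouse was below every C57 mouse. The mean log2 difference was -0.60 (SE 0.14, limma adjusted p = 0.0204). For mt-Nd5 it was -0.48 (SE 0.16, limma adjusted p = 0.0707), which passed without NZB non-lactating mouse 1 (limma adjusted p = 0.0351) or NZB day 21 mouse 1 (limma adjusted p = 0.0462).

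By stage, mt-Nd1 differed by -0.83 (SE 0.29, limma adjusted p = 0.102) before lactation, 0.05 on day 8, -0.83 (limma adjusted p = 1) on day 14 and -0.81 (SE 0.29, limma adjusted p = 0.0425) on day 21. On day 21 the call was lost without C57 mouse 1 or 2 or NZB mouse 2 or 3 (adjusted p = 0.0808 to 0.143). NZB mice 1 and 2 of that day carried skeletal muscle markers at 201 and 776 CPM in sum, and non-lactating mouse 3 at 517 CPM, against at most 19.8 CPM in C57 glands. Without these 3 mice the day 21 difference was -0.99 (limma adjusted p = 0.0918) and the mean over stages -0.60 (limma adjusted p = 0.0362). Without NZB non-lactating mice 2 and 3, which leaves 1 mouse in that group, the mean was -0.56 (limma adjusted p = 0.0510).

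Before lactation 0 members were higher in NZB and 1, mt-Nd3, was lower (1.72% and 3.61% of all genes). On day 8 none was called (0.0372% of all genes), with 2 at an unadjusted p below 0.05 in limma and 0 by limma voom. The same numbers held on day 14, where none was called (0.0372% of all genes), 2 had an unadjusted p below 0.05 and limma voom called 0. On day 21 0 were higher and 2, mt-Nd1 and mt-Nd3, lower (20% and 5.72%). The median log2 difference of the members was -0.55, 0.29, -0.49 and -0.63 in the order of the stages, beside 0.09, 0.12, 0.02 and 0.31 over all genes. On the deposited scale day 21 turned round: the median of all genes moved to 1.35 and mt-Nd2, mt-Nd4, mt-Nd4l, mt-Nd5 and mt-Nd6 were higher in NZB (0.72 to 1.19), beside a lower share of milk mRNAs.

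**Figure D4:**
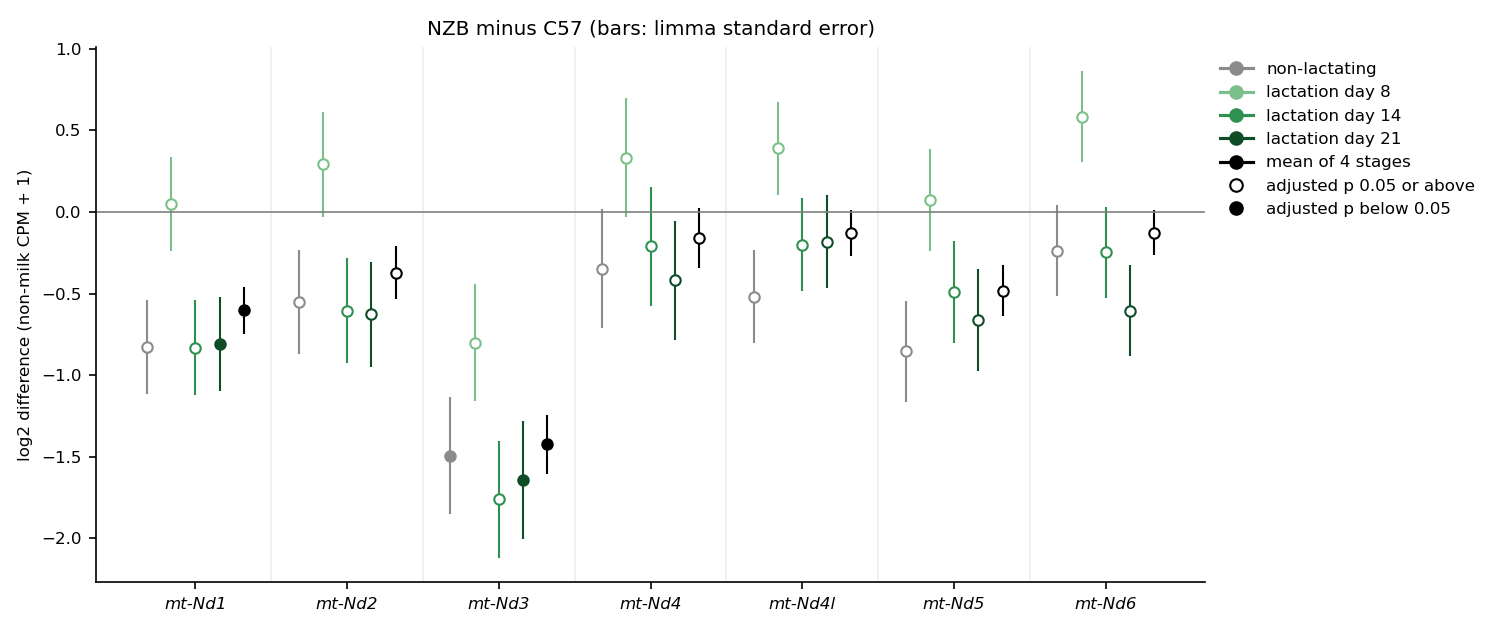
NZB minus C57, log2(non-milk CPM + 1), for each gene at each stage and over the mean of the stages, with limma's standard error as bars and filled points for an adjusted p below 0.05. The filled points are mt-Nd3 (non-lactating, day 21 and mean) and mt-Nd1 (day 21 and mean).

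Within the mitochondrial pool the share of mt-Nd4 was larger in NZB glands, while its level over the mean of the stages was not. On the non-milk scale all 7 members, mt-Nd4 included, were below C57 over that mean (log2 differences of -1.43 to -0.13). Before lactation the mt-Nd4 share ran from 13.7% to 14.8% in C57 and from 16.3% to 17.1% in NZB. On day 8 the C57 range was 12.5% to 13.3%, below the NZB range of 15.5% to 16.2%. Day 14 gave 10.9% to 14.6% in C57 against 14.9% to 15.5% in NZB. Day 21 gave 11.7% to 13.3% in C57 against 13.4% to 15.4% in NZB. The genotypes overlapped at none of the 4 stages. The mean was 12.97% in C57 and 15.47% in NZB, 2.50 points apart (exact permutation of genotype within stage, 2-sided, p = 1.25e-05, the smallest this design allows; adjusted over the 13 genes, p = 0.000163). The share of mt-Nd4l, which overlaps mt-Nd4, was 1.64% to 2.29% (median 1.93%) in C57 and 1.95% to 2.81% (median 2.35%) in NZB. It differed by 0.438 points (exact permutation p = 6.25e-05, adjusted p = 0.000203).

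In all, 5 of the 7 members (3 higher and 2 lower in NZB) differed in share between the genotypes. Of the other 6 mitochondrial mRNAs 4 did so (3 higher and 1 lower in NZB). The largest difference of the 13 was in mt-Co1, with 34.3% in C57 and 29.6% in NZB on average. It was -4.75 points (exact permutation p = 0.000238, adjusted p = 0.000618). For mt-Nd1 the share was 10.2% in C57 and 8.93% in NZB on average, -1.26 points (exact permutation p = 0.00350, adjusted p = 0.00650). For mt-Nd6 it was 1.22% and 1.48%, 0.257 points (exact permutation p = 0.00518, adjusted p = 0.00841), which became 0.244 points (adjusted p = 0.0547) with mt-Co1 left out of the total. The mean shares of mt-Nd5, 8.49% and 7.99%, gave -0.497 points (exact permutation p = 0.0846, adjusted p = 0.110). That difference was called with mt-Co1 left out of the total (-1.56 points, adjusted p = 0.00360), without C57 day 14 mouse 2 (-0.608 points, adjusted p = 0.0397) and without the 3 mice with muscle markers (-0.723 points, adjusted p = 0.0470). For mt-Nd2 it was 0.220 points (exact permutation p = 0.432, adjusted p = 0.432).

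The mt-Nd3 row was the one that depended on its nuclear copy. In C57 mt-Nd3 stood at 171, 114 and 210 non-milk CPM before lactation, 151, 173 and 130 on day 8, 98.2, 250.5 and 203 on day 14 and 96.3, 250.2 and 124 on day 21. In NZB it stood at 70.7, 72.6 and 34.4 before, 85.1, 106 and 70.7 on day 8, 51.7, 65.1 and 36.4 on day 14 and 44.1, 36.8 and 58.0 on day 21. Every NZB mouse was below every C57 mouse of its stage. The log2 difference was -1.50 (SE 0.36, limma adjusted p = 0.0161) before lactation, -0.80 (SE 0.36, limma adjusted p = 0.879) on day 8, -1.76 (SE 0.36, limma adjusted p = 0.120) on day 14 and -1.64 (SE 0.36, limma adjusted p = 0.00198) on day 21. Over the mean of the stages it was -1.43 (SE 0.18, limma adjusted p = 9.0e-05). Its share was 0.143% in C57 and 0.0707% in NZB on average, -0.0728 points (exact permutation p = 2.5e-05, adjusted p = 0.000163).

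The 2 deposited columns of a mouse show how unsure the split is. Within a mouse, the second column over the first gave 0.297 to 3.91 for mt-Nd3, while the other 6 members gave 0.958 to 1.02. For the sum of mt-Nd3 and Gm28438 that ratio was 0.973 to 1.03. As the sequences above show, the gene and the copy differ in 1 base over the match. The copy held 39.7% to 76.1% (median 62.6%) of the sum in C57 and 80.0% to 89.2% (median 84.0%) in NZB, with no overlap.

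With the copies added to their genes the mt-Nd3 difference between the genotypes was called on day 21 and at no other stage. The log2 difference between NZB and C57 was 0.08 (adjusted p = 0.884) before lactation and -0.16 (SE 0.11, adjusted p = 0.396) over the mean of the stages. On day 21 it was -0.71 (SE 0.23, adjusted p = 0.0241). Against non-lactating NZB glands the sum was higher on day 8 (0.63, SE 0.23, limma adjusted p = 0.0265), where mt-Nd3 by itself gave 0.61 (SE 0.36, limma adjusted p = 0.171). The other 5 lactation differences of mt-Nd3 by itself ran from -0.30 to 0.09 (SE 0.36 each). The share of the sum was 0.342% in C57 and 0.408% in NZB as a mean over mice, and the difference over stages was 0.0656 points, higher in NZB (exact permutation p = 0.00673, adjusted p = 0.00874). The change of that share with lactation was 0.0869 points (exact permutation p = 0.00178, adjusted p = 0.00385), from 0.239% to 0.376% in C57 and from 0.380% to 0.417% in NZB. Of the mt-Nd3 row by itself, the call before lactation was lost in the first column alone (-1.21, adjusted p = 0.0653), and without C57 mouse 1 or 3 or NZB mouse 3 (adjusted p = 0.0513 to 0.139). Without the 3 mice with muscle markers it was -1.15 (limma adjusted p = 0.152) before lactation, -1.30 (limma adjusted p = 0.0755) on day 21 and -1.25 (limma adjusted p = 0.00114) over the mean of the stages. On day 14 the mt-Nd3 difference was called without C57 mouse 1 (limma adjusted p = 0.0204).

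**Figure D5:**
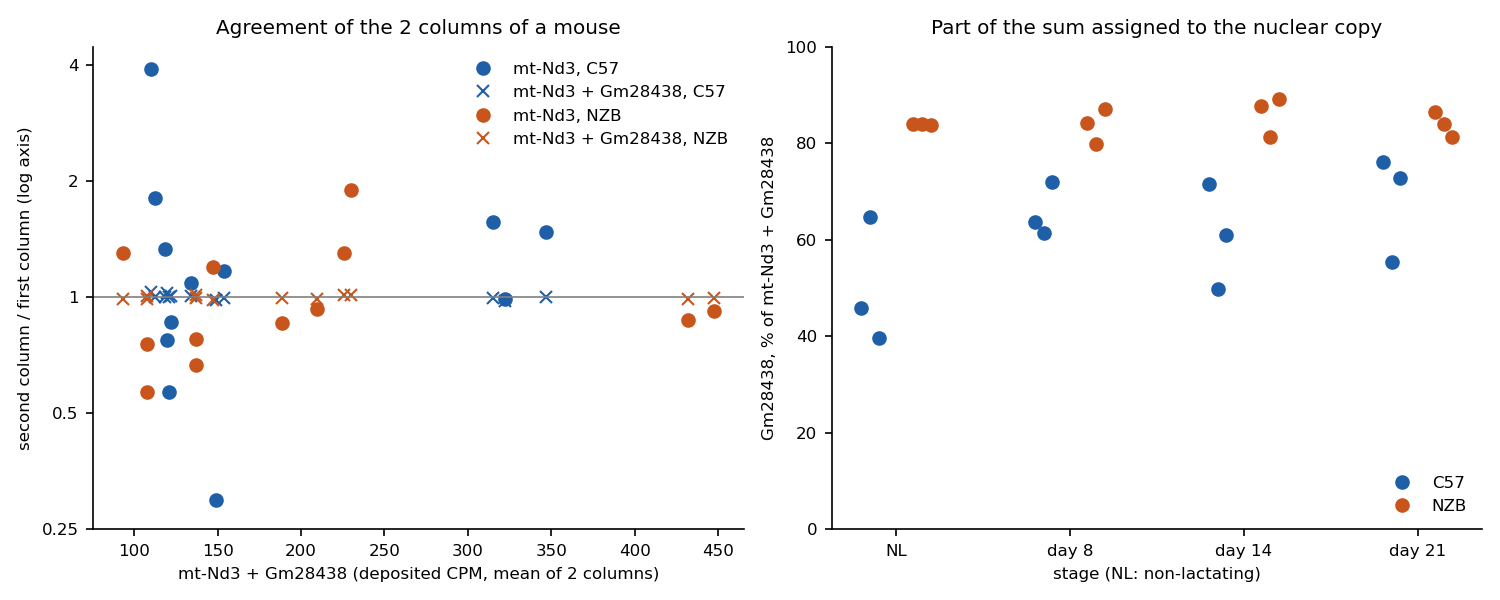
Left, ratio of the second to the first deposited column of each mouse (log axis) against the summed CPM of mt-Nd3 and its nuclear copy Gm28438, for mt-Nd3 (circles, 0.297 to 3.91) and for the sum (crosses, 0.973 to 1.03). Right, percent of that sum assigned to Gm28438 in each mouse by stage, 39.7% to 76.1% in C57 and 80.0% to 89.2% in NZB.

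The copies of the other members held a smaller part of the sum with their gene, though not always fewer reads. Gm28439, the copy of mt-Nd4, held 0 to 465 CPM and at most 6.63% of its sum with mt-Nd4, and it stood at 0 in 11 of 24 mice. Gm10222, the copy of mt-Nd4l, stood at 0 in all 24 mice. For mt-Nd4 the second column over the first was 0.988 to 1.01 within a mouse, and adding the copies kept the share differences of mt-Nd4 and mt-Nd4l past the threshold.

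The last comparison was of day 21 with day 14. In C57 none of the 7 members was called by limma, with 0 at an unadjusted p below 0.05 and 0 by limma voom. There 0% of all genes were called (173 at an unadjusted p below 0.05, 0 by limma voom). In NZB none was called either, again with 0 at an unadjusted p below 0.05 and 0 by limma voom, while 22.9% of all genes were. The largest of the NZB differences was -0.19 (SE 0.37), for mt-Nd4, and the median -0.07, beside 0.29 over all genes. The difference between the genotypes in this change was called for none of the 7 (6.75% of all genes; 0 at an unadjusted p below 0.05, 0 by limma voom) and ranged from -0.36 to 0.12. On the deposited scale all 7 rose in NZB from day 14 to day 21 (1.23 to 1.43), where the median of all genes moved by 1.36.

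Nuclear subunits of complex I changed in both directions with lactation, and in NZB on day 21 mostly downward. Of 36 measured, 5 rose and 0 fell in C57 on day 8, where 13% of all genes rose and 32.1% fell. On day 14, 2 rose and 5 fell (all genes: 14.0% and 25.2%), and on day 21, 3 rose and 4 fell (13.8% and 26.2%). In NZB 4 rose and 4 fell on day 8 (14.8% and 33.0%), and 2 rose and 5 fell on day 14 (15.6% and 31.1%). On day 21 of NZB 1 rose and 12 fell (17.4% and 15.5%). The median log2 differences were 0.14, -0.17 and -0.21 in C57 and -0.11, -0.21 and -0.50 in NZB, beside -0.33, -0.19 and -0.21 and -0.32, -0.34 and -0.06 over all genes. Ndufc2, an accessory subunit of the membrane arm, rose in all 6 comparisons. It stood at 46.2, 39.0 and 48.2 non-milk CPM in C57 before lactation and at 141, 141 and 137 on day 8, a log2 difference of 1.63 (SE 0.19, limma adjusted p = 2.66e-07).

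Ndufa1, a small accessory subunit, went from 19.0, 10.2 and 16.2 to 52.9, 63.0 and 50.1 in C57 on day 8 (1.84, SE 0.28, limma adjusted p = 1.03e-05). In NZB on day 21 it stood at 21.9, 17.3 and 27.9, lower than on day 14 (log2 difference -1.19, limma adjusted p = 0.00411). Ndufb10 fell on days 14 and 21 in C57 (-0.72 and -0.92) and on days 8 and 21 in NZB (-0.86 and -1.01). Between the genotypes on day 21, 4 subunits were lower in NZB, among them Ndufc2 at -0.73, Ndufv3 at -0.92 and Ndufa1 at -0.84. Before lactation 1 subunit was higher in NZB, Ndufb2 (1.34, limma adjusted p = 0.0202).

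Of 14 measured assembly factors of complex I, 2 rose and 1 fell in C57 on day 8 (all genes: 13% and 32.1%), 1 rose and 0 fell on day 14 (14.0% and 25.2%), and 1 rose and 1 fell on day 21 (13.8% and 26.2%). In NZB 2 fell on day 14 and 2 on day 21, where 31.1% and 15.5% of all genes fell. Ndufaf4 rose in C57 on each day (0.71, 0.65 and 0.83, SE 0.23 each), and Foxred1 fell in NZB on days 14 and 21 (-0.75 and -0.89, SE 0.18 each).

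Of 30 measured genes of mitochondrial transcription and RNA processing, 3, 2 and 3 rose and 3, 1 and 1 fell in C57 on days 8, 14 and 21. Over all genes 13% to 14.0% rose and 25.2% to 32.1% fell in C57 on these days. In NZB 3, 2 and 4 rose and 1, 5 and 2 fell, beside 14.8%, 15.6% and 17.4% and 33.0%, 31.1% and 15.5% of all genes. Rexo2, an exonuclease that clears short RNA in mitochondria, rose in all 6 comparisons, by 1.47, 1.42 and 1.33 in C57 and 1.73, 1.58 and 0.98 in NZB (SE 0.20 each). Grsf1, a protein of mitochondrial RNA granules, rose in all 6 too (0.44 to 0.96, SE 0.17 each). Hsd17b10, a part of the nuclease that frees tRNA 5′ ends from the precursor, fell in C57 on all 3 days (-0.62, -0.99 and -0.72, SE 0.23 each). Polg, the polymerase of mitochondrial DNA, fell in NZB on all 3 days (-0.95, -0.78 and -0.87, SE 0.17 each), from 50.3, 56.3 and 76.4 non-milk CPM before lactation, where it was above C57 by 0.66 (limma adjusted p = 0.0271). NZB non-lactating mouse 3, the highest of these for Polg, was also the lowest of all 24 mice for mt-Nd1, and it is 1 of the 2 with raised lymphocyte markers.

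The nuclear genes whose 8 group means followed the mean of the members most closely were Olr1 (Pearson r = 0.904), Tmem107 (0.903), Pitpnm3 (0.903), Dnajb14 (0.889) and Mmel1 (0.884), over 8 points that share the libraries. These genes were picked for the highest r among the named genes of the 16142 tested, so their r is high by selection. The members' own r with their mean, of which each is a part, was 0.716 (mt-Nd6) to 0.903 (mt-Nd2). The 8 group means of the best match, Olr1, ran from 1.15 to 2.40 on the log2 scale.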

How the data were processed

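PolyA RNA from snap-frozen mammary glands was sequenced, per the labels. The deposited table holds log10(CPM + 1) for 32544 genes and 48 columns, 2 per mouse. Builds GRCm38 and mm10 are named in the submitters' processing notes. The aligner, the counter and the use of strand are not stated in the sources used here. Values were turned back to CPM, in which each column sums to 1000000 and 27 symbols altered to date-like words stay in the total. The 2 columns of a mouse were averaged in CPM with equal weight, whatever their depth. Whole reads could be recovered for 99.996% and 99.997% of values in the first and second columns (tolerance 0.05 reads).

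The 7 members, the gene lists and the milk list (20 of 21 genes found) were chosen with earlier results of these data known. limma 3.58.1 (R 4.3.3, trended variance) was fitted to log2(non-milk CPM + 1) of all 24 mice with 8 group means. A gene needed a CPM above 1 in at least 3 mice, which left 16142, and p-values were adjusted over these by Benjamini-Hochberg. A pseudocount of 1 understates changes of low genes. Shares of the 13 mitochondrial mRNAs were tested by exact 2-sided permutation over mice, genotype within stage or lactation within genotype, adjusted over 13 genes in each of the families. The fits and tests were tested on simulated data. Python 3.11.15 with scipy 1.17.1 was used, and BLAST 2.17.0 for copies.

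Of each list, up to 3 genes that rose and 3 that fell with the smallest adjusted p were open to naming in a comparison, and 5 nuclear genes by correlation. Contrasts of the change from non-lactating to each lactation day between genotypes, the test of the lactation change of shares between genotypes, and the fits without mice high in muscle or lymphocyte markers (above 100 CPM in sum) were added after the data were seen. Alternatives covered the scale, pseudocount, filter, samples in the fit, limma voom on recovered reads, array weights, the number in the titles as a block, single columns, copies added to their genes, and each mouse left out.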

Additional observations from a re-analysis of the deposited data

How the results depend on the processing

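Of 566 repeats of called values of single genes, 507 kept direction and call, 56 lost the call and 3 changed sign. Of 2759 repeats of values not called, 73 became called in the same direction and 31 became called in the opposite one. The causes were not tested unless the setting itself shows them. With milk genes kept in the total, the number of members called was 7 in C57 on days 8, 14 and 21 and in NZB on days 8 and 14, and 3 in NZB on day 21. It was 1 and 5 between genotypes on days 14 and 21, 1 over the mean of stages, and 7 for NZB day 21 against day 14 and for the genotype difference of the changes from day 14 to 21 and from non-lactating to day 21. On that scale 36 signs turned, 4 of them for values called on neither scale. The other 32 were for C57 day 14 (mt-Nd1 -1.59, mt-Nd2 -1.76, mt-Nd3 -1.67), C57 day 21 (mt-Nd1 -1.62, mt-Nd2 -1.76) and NZB day 14 (mt-Nd1 -1.64). They turned for NZB day 8 (mt-Nd1 -1.31, mt-Nd2 -1.21, mt-Nd3 -1.27, mt-Nd4 -1.62, mt-Nd4l -1.42, mt-Nd5 -1.90) and between genotypes on day 21 (mt-Nd1 0.57, mt-Nd2 0.75, mt-Nd4 0.96, mt-Nd4l 1.19, mt-Nd5 0.72, mt-Nd6 0.77). They turned for NZB day 21 against day 14 (mt-Nd2 1.40, mt-Nd3 1.24, mt-Nd4 1.23, mt-Nd4l 1.35, mt-Nd5 1.38, mt-Nd6 1.35), for the genotype difference of that change (mt-Nd2 1.41, mt-Nd4 1.22, mt-Nd5 1.26, mt-Nd6 1.07) and for that of the change to day 21 (mt-Nd2 1.32, mt-Nd3 1.23, mt-Nd4 1.32, mt-Nd6 1.02). With copies added, mt-Nd3 turned to 0.083 before lactation and its share difference between genotypes to 0.0656 points, and the members called were 1 in NZB on day 8, 0 between genotypes before lactation and 1 over the mean. Without a filter 1 was called in C57 on day 8, 0 in C57 on day 14 and in NZB on days 14 and 21, and 1 between genotypes on day 21 and over the mean. With only the groups compared 0 were called in C57 on day 14, NZB on days 14 and 21 and between genotypes before lactation, and 1 between genotypes on day 21. A pseudocount of 0.1 gave 1 in C57 on day 21, as did a filter at a CPM of 5, which also gave 1 in NZB on day 8. limma voom gave 1 in C57 on day 21, 2 in NZB on day 8 and 2 between genotypes before lactation. Array weights gave 2 in C57 on day 21, 1, 2 and 5 in NZB on days 8, 14 and 21, 3 and 5 between genotypes before lactation and on day 21, and 4 over the mean. The first column alone gave 0 between genotypes before lactation. Without the mice high in muscle markers, chosen after seeing the data, 1 was called in C57 on day 21, 2 and 3 in NZB on days 14 and 21, and 0 between genotypes before lactation and on day 21. Without those high in lymphocyte markers, likewise chosen, it was 1 in C57 on day 21, 0 in NZB on days 14 and 21, 0 between genotypes before lactation and 1 over the mean, and 1 share differed in its lactation change, as it did without mt-Co1.

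Leaving out each mouse gave 0 to 2 called in C57 on days 8 and 14, 0 to 1 on day 21, 0 to 1 and 0 to 2 in NZB on days 14 and 21, and 0 to 1 between genotypes before lactation and on day 14. It gave 1 to 2 on day 21 and 2 to 3 over the mean, and 0 to 1 for the lactation change of shares between genotypes. The numbers in the titles did not pair mice (correlation of deviations -0.40 to 0.48 over 84 pairs, median 0.008, 9 over 0.1). With the number as a replicate block, 1 member was called in C57 on day 14 and 1 between genotypes on day 21. At the mean depth of the 2 columns, the row of mt-Nd3 rests on 239 to 3319 reads per mouse, and every other member on at least 4327.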
